A study of Homo sapiens with 46 samples.

Results

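The transcripts described here are those whose ribosome footprints rose relative to their mRNA during neural conversion of H1 cells, an established human embryonic stem cell line. A rule chose 100 of the 63691 deposited transcript rows. The members were chosen by measured values. Counts were scaled to the file's total (CPM), 0.5 was added, and the log2 ratio of footprints to mRNA was taken, called TE (translation efficiency) from here on. The rule used only the 8 control-hairpin libraries of the first set at the undifferentiated stage (hES) and at 6 days of neural conversion (ND6). It took rows with an mRNA level of at least 20 CPM in all 4 of those mRNA libraries and with both ND6 TE values at least 0.5 above both hES values. It then kept 1 row from each run of adjacent passing rows and took the 100 with the greatest mean difference. Of 7735 rows with enough mRNA, 730 passed, in 342 runs.

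Rows of overlapping isoforms can hold the same reads, so rows whose counts moved together within sampling noise were joined into groups. The 100 rows fall into 87 such transcript groups, called members from here on and placed by their best-ranked row. In all, 24 of the rows share a group with another chosen row, and 7 have the same counts as another chosen row in every library. The series holds 17650 groups, of which 3313 have enough mRNA for the rule. The 3226 groups among them that are not members are called the others.

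Cells were infected with lentivirus carrying a short hairpin RNA against KBTBD8 (shKBTBD8), one against TCOF1 (shTCOF1) or a control hairpin (shControl). Stages were hES, grown without feeder cells in mTESR1, and 1, 3 and 6 days of conversion in the medium labelled NIM (ND1, ND3 and ND6). The first set of libraries holds shKBTBD8 and shControl at the 4 stages with 2 numbered replicates, each as a footprint and an mRNA library, 32 in all. A further 14 libraries, called the second set, hold 1 footprint and 1 mRNA library each of shKBTBD8, shTCOF1 and shControl at ND3, and at hES 1 of each kind for shKBTBD8 and for shTCOF1 and 2 for shControl. All cells carry a lentiviral hairpin, all come from 1 line, and the number of hairpin sequences per target is not given in the sources used here. The labels do not say whether replicates were separate cultures, so p-values measure only how these samples vary, which may be technical.

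In ribosome profiling, RNase I digests the mRNA that ribosomes do not shield, and the protected pieces are sequenced. The footprint count of a transcript then follows both the amount of its mRNA and the number of ribosomes on each copy, and dividing by mRNA leaves the second. KBTBD8 brings substrates to a ubiquitin ligase built on CUL3. TCOF1 is a nucleolar protein that serves ribosome RNA production. Differentiating stem cells are known to change the ribosome loading of some mRNAs apart from their amount.

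The identifiers are UCSC transcript numbers that the files do not pair with gene names. Looked up in the gene tables at hand, 0 identifiers were found. Gene names, roles, marker genes, sequences and the level of the targeted genes are therefore not given. Of the members, 4 are printed by identifier, and the rest are named by their place in the rule's order.

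Deposited totals of the first set were 2.31 to 21.1 M footprint and 34.4 to 57.4 M mRNA counts per library, with shared reads counted in more than 1 row. Libraries of the second set held 8.80 to 16.4 M footprint or 24.0 to 62.4 M mRNA counts. The median member had 43 to 243 footprint counts in the libraries of the first set and 146 to 308 in those of the second. The shKBTBD8 footprint libraries of replicate 2 at ND6 and ND3 stood apart, each with no footprint for 21.8% of all groups. The other footprint libraries of either set had none for 1.56% to 16.45% of groups, the highest being hES shControl replicate 2 of the second set. The ND6 one of shKBTBD8 replicate 2 was also the shallowest, with 43 counts for the median member and 9 members under 10 counts. No pair of libraries agreed within sampling noise. The control hES footprint libraries of replicate 1 in the first and the second set were alike (Pearson r = 0.98 across transcripts), and the labels do not say whether the sets share cultures.

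In the control libraries that the rule used, the members' TE was 1.01 to 2.35 higher at ND6 than at hES on the log2 scale, with a median of 1.17. The median change was 1.09 for footprints and −0.12 for mRNA. The others had a median TE change of 0.26 on the same scale. These values chose the members and are a description only. The last members inside the limit, ranked 98th, 99th and 100th, had mean differences of 1.03, 1.01 and 1.01. The first rows outside it had 1.01, 1.01 and 0.997. Every member has all control ND6 libraries above all control hES libraries by construction, beside 46.6% of the 3313 groups with enough mRNA.

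The members began low. In hES cells carrying shKBTBD8, libraries that the rule did not read, the median TE of the members was −1.89 and −1.82, against −0.10 and −0.02 for the others. There, 63 of 87 members lay under −1.38, the limit of the lowest 10% of the others, and 76 lay under −0.69, that of the lowest 25%. The 4 hES libraries of the second set gave the members medians of −1.79 with shKBTBD8, −1.92 with shTCOF1, and −1.65 and −1.80 with shControl. Longer transcripts had lower TE at hES over the 3313 groups with enough mRNA, with r = −0.25 and rho = −0.29 between log2 length and TE with shKBTBD8, and r = −0.38 and rho = −0.42 in the second set. The members were longer than the others (median 665 against 519.5, on the length column described at the end), and the part of length in their low TE was not tested. The member ranked 99th was the only one above 0 on average, at 1.85 in hES cells carrying shKBTBD8.

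After hES, TE of the members was higher at each later stage on average. With shKBTBD8 the library medians were −1.89 and −1.82 (hES), −1.28 and −1.51 (ND1), −1.02 and −1.44 (ND3) and −0.78 and −1.17 (ND6). With shControl they were −1.90 and −1.91 (hES), −1.57 and −1.51 (ND1), −0.87 and −1.44 (ND3) and −0.69 and −0.75 (ND6). With shKBTBD8, whose libraries the rule did not read, all later libraries lay above both hES libraries. With shControl the rule itself put ND6 above hES, and ND1 and ND3 were set against hES libraries that chose the members, so that order is a description. With shKBTBD8 the libraries of ND3 overlapped those of ND1 and of ND6, and with shControl the later stages did not overlap. The cultures were measured in bulk, so a change in the share of a cell type and a change within cells cannot be told apart. The medians of the others stayed between −0.12 and 0.11 in these 16 pairs of libraries. At ND6 the members were still low: 77 and 74 of 87 lay below the median of the others with shKBTBD8, and 75 and 74 did with shControl.

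**Figure D1:**
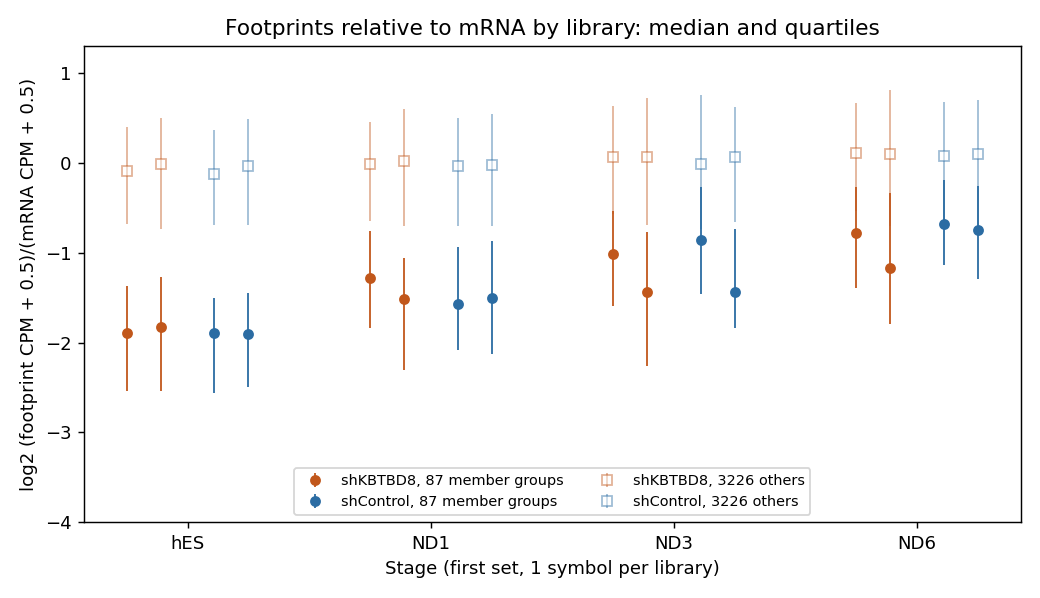
Footprints relative to mRNA (log2, vertical axis) by stage in the first set, 1 symbol per library at the median with a line over the quartiles. Filled circles are the 87 members and open squares the 3226 others, in orange for shKBTBD8 and blue for shControl; member medians climb from near −1.9 at hES, while those of the others stay between −0.12 and 0.11.

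The first comparison on libraries that the rule did not read asks whether the members gained footprints relative to mRNA in the shKBTBD8 cells at ND6, as in the control cells that chose them. Of the 87 members, 64 had both ND6 libraries above both hES libraries and 0 had both below. Beside them, 39% of all groups with enough mRNA had both above and 12.2% had both below. In the model fitted to all 17635 transcripts (edgeR's quasi-likelihood test of the interaction of assay and stage, with scaling factors estimated by TMM), the members' median TE change was 0.65, with 83 of 87 above 0. The others had a median of −0.00, with 49.8% above 0. The single changes ranged from −0.32 to 2.43 and the median standard error was 0.41. The median member had 157 and 43 footprint counts at ND6, against 206 and 128 at hES, and the part of this depth in the result was not tested. These libraries also varied together with the control libraries that chose the members: differences between replicates 1 and 2 correlated between the hairpins at 0.87 (mRNA) and 0.59 (footprints) at hES and at 0.71 and 0.18 at ND6, across 5784 transcripts. The labels do not say whether same-numbered cultures of both hairpins were handled together, and the part of this shared variation in the members' gain was not tested.

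Few of these changes passed on their own. After Benjamini-Hochberg adjustment, 3 members were higher and 0 lower, beside 7 transcripts called higher (0.0397%) and 143 lower (0.811%) in all. At an unadjusted p under 0.05, 27 members were higher and 0 lower, beside 2.48% of all transcripts higher and 2.72% lower. DESeq2 called 7 members higher and 0 lower, beside 26 and 211 of all 17635 transcripts. The edgeR count rests on single libraries: with 1 hES or ND6 library left out, it fell in most fits. The count over all transcripts fell and rose in the same fits. The members' median stayed between 0.51 and 0.75 in these 8 fits, against −0.24 to 0.20 over all transcripts. It was lowest, at 0.51, without ND6 footprint replicate 1, where all transcripts had a median of −0.24.

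The earlier stages gave smaller medians, and edgeR called no member there. At ND3 the members' median TE change with shKBTBD8 was 0.41, with 68 of 87 above 0. The others had a median of −0.003, with 49.7% above 0. For the members edgeR called 0 higher and 0 lower, beside 0% and 0.499% of all transcripts. At an unadjusted p, 22 were higher and 0 lower, beside 2.17% and 2.98%. DESeq2 called 5 higher and 0 lower, beside 23 and 184 of all 17635 transcripts. At ND1 the members' median was 0.31, with 77 above 0, against −0.008 and 48.4% above 0 for the others. Of the members edgeR called 0, beside 0% of all transcripts in either direction. At an unadjusted p, 5 were higher and 0 lower, beside 0.567% and 1.21%. DESeq2 called 1 higher and 0 lower, beside 1 and 20 of all 17635 transcripts. Non-overlap was seen for 46 members at ND3, beside 38.3% of groups with enough mRNA, and for 40 at ND1, beside 20.2%. Without ND3 footprint replicate 1 the members' median at ND3 was 0.08, against −0.23 over all transcripts. Without ND3 footprint replicate 2 it was 0.59, against 0.10, and without hES footprint replicate 1 it was 0.42, against 0.16.

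**Figure D2:**
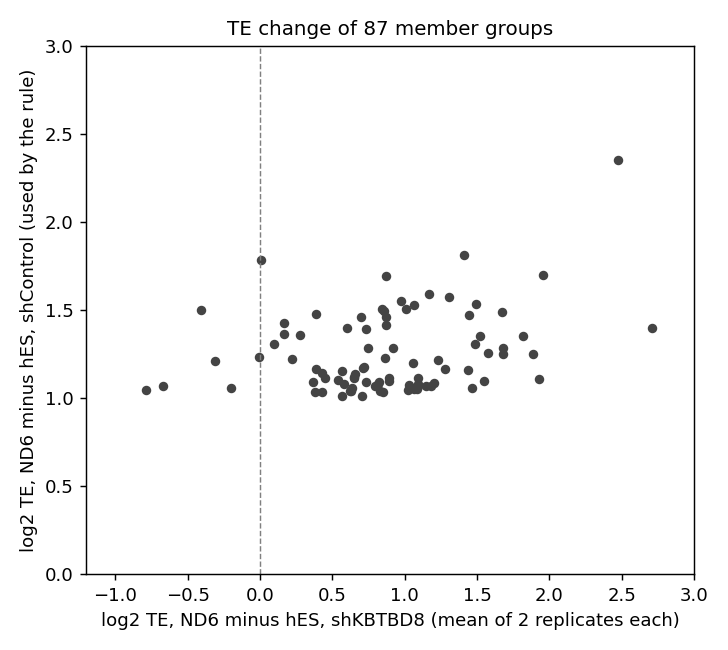
TE change of each of the 87 members between ND6 and hES, with shKBTBD8 on the horizontal axis and shControl on the vertical axis (log2, means of 2 replicates; the vertical values chose the members and start at 1.01). With shKBTBD8, 81 members lie right of 0 and 6 left of it. Of the 3226 others, not drawn, 71.2% had a change above 0 on this scale, with a median of 0.25. The members ranked 1st to 5th lie between 0.01 and 2.48 on the horizontal axis.

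Across members, the TE changes with shKBTBD8 and with shControl had Pearson r = 0.29 and Spearman rho = 0.23 (n = 87). The points share the prior limit on the control change and low footprint counts. The changes with shKBTBD8 at ND6 and in the second set at ND3 had r = −0.12 and rho = 0.00.

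The second set holds no library that the rule read, and there ND3 was compared with hES over all hairpins, with hairpin as an additive term. The members' median TE was −0.99 with shKBTBD8, −1.15 with shTCOF1 and −1.18 with shControl at ND3, and all 3 lay above all 4 hES libraries. Footprint totals were 8.80 to 16.4 M at ND3, against 10.8 to 16.2 M at hES, and so overlapped. For 52 of 87 members every ND3 library lay above every hES library, and for 0 every one lay below, beside 24.9% and 10.5% of groups with enough mRNA. The fitted change had a median of 0.46 for the members, with 76 above 0, against 0.02 for the others, with 52.7% above 0. edgeR called 8 members higher and 0 lower, beside 0.148% and 1.34% of all 17587 transcripts. At an unadjusted p, 36 were higher and 0 lower, beside 5.04% and 4.74%. DESeq2 called 19 members higher and 0 lower, beside 205 and 381 of all 17587 transcripts. Leaving out 1 library moved the count over 3 to 9. It fell without hES shControl mRNA replicate 1 and without the ND3 shControl mRNA library. It was lowest without the shKBTBD8 or shTCOF1 mRNA library of either stage. Leaving out 1 of these leaves the hairpin's other mRNA library to its own hairpin term, so the hairpin's mRNA drops out of the stage comparison. The hES and ND3 fits are then nearly the same, with member medians of 0.462 and 0.462 without shKBTBD8 and 0.443 and 0.442 without shTCOF1. With the knockdown libraries alone, where 2 libraries stand for each stage and assay, edgeR called 0 members and 0 of all 17619 transcripts. The members' median there was 0.53, against 0.10 over all transcripts.

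**Figure D3:**
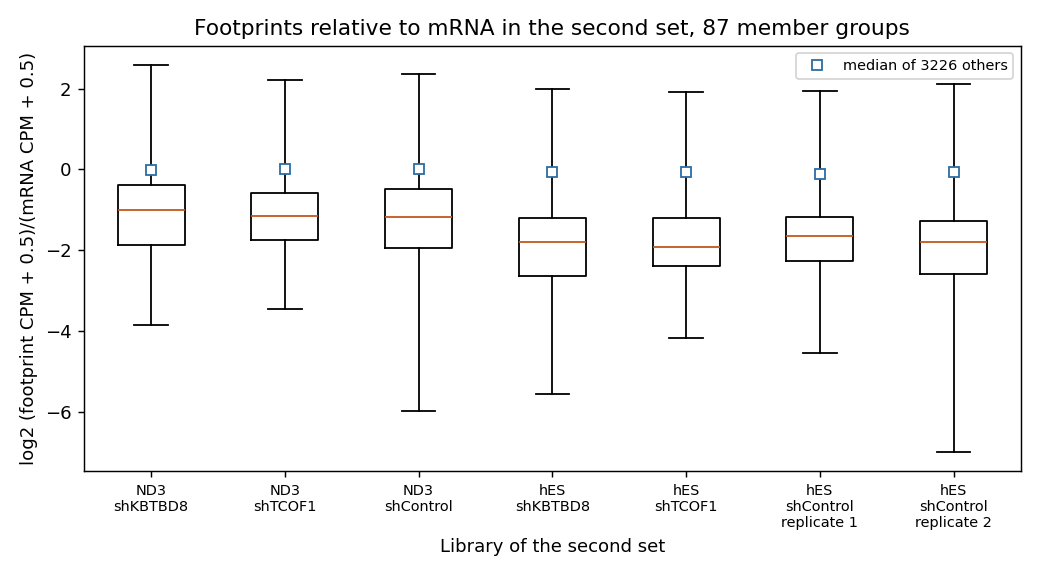
TE (log2) of the 87 members in each library of the second set, as boxes over the quartiles with the median in orange and whiskers to the lowest and highest member. Open squares are the medians of the 3226 others; the 3 ND3 libraries have member medians of −0.99 to −1.18 and the 4 hES libraries −1.65 to −1.92.

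The members called in either set differ in what their mRNA did. The lists of 3 and 8 shared 2 members, which is 2 of 3 and 2 of 8. The shared ones are uc001imk.3, ranked 33rd, and the member ranked 38th.

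uc001imk.3 lost most of its mRNA and less of its footprints. With shKBTBD8 its mRNA was 31.5 and 32.5 CPM at ND6, against 356 and 422 CPM at hES, and its footprints were 23.0 and 43.2 CPM at ND6, against 95.5 and 122 CPM at hES. ND1 and ND3 lay in between, with mRNA at 123 and 132 CPM at ND1 and 48.9 and 47.1 CPM at ND3. The stages did not overlap in mRNA. Its mRNA change was −3.54 (SE 0.14, edgeR adjusted p = 1.61e-08), its footprint change −1.95 (SE 0.30, adjusted p = 0.000752) and its TE change 1.57 (SE 0.31, adjusted p = 0.0185). The TE call was lost without either hES or ND6 mRNA library, without hES footprint replicate 1 and without ND6 footprint replicate 2, where the change was 1.12 to 1.66 with edgeR adjusted p of 0.0599 to 0.122.

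In the second set the mRNA of uc001imk.3 was 47.1, 51.1 and 50.1 CPM at ND3 with shKBTBD8, shTCOF1 and shControl, against 424, 539, 534 and 556 CPM in the hES libraries. Footprints were 31.1 to 34.2 CPM at ND3, against 102, 111, 114 and 121 CPM at hES. Both fell without overlap, the mRNA by 3.27 and the footprints by 1.79 on the log2 scale. TE rose by 1.46 (SE 0.12, edgeR adjusted p = 0.000416), and with the knockdown libraries alone the adjusted p was 0.0737.

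The member ranked 38th kept more of its mRNA, and its footprint change did not pass in either set. With shKBTBD8 its TE was −2.71 and −2.33 at ND6, against −4.12 and −4.28 at hES, and the stages did not overlap. Its mRNA was 134 and 159 CPM at ND6, against 238 and 258 CPM at hES, and its footprints were 20.2 and 31.1 CPM, against 13.2 and 12.8 CPM. The mRNA fell by 0.69 (SE 0.13, edgeR adjusted p = 0.000691) on the log2 scale, the footprint change was 0.76 (SE 0.38, edgeR adjusted p = 0.251), and the TE change was 1.42 (SE 0.30, edgeR adjusted p = 0.0325). The TE call was lost without either mRNA library of hES or of ND6, and without footprint replicate 2 of either stage. In the second set the mRNA fell by 0.46 (SE 0.09, edgeR adjusted p = 0.00185) and the footprint change was 0.52 (SE 0.21, edgeR adjusted p = 0.124). There the TE change was 0.96 (SE 0.14, edgeR adjusted p = 0.00426), with TE of −2.73, −2.79 and −2.76 at ND3 and −4.05, −3.95, −3.59 and −3.67 at hES.

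The member ranked 17th gained both. With shKBTBD8 its mRNA was 380 and 449 CPM at ND6, against 81.3 and 99.5 CPM at hES, and its footprints were 354 and 480 CPM, against 26.5 and 29.3 CPM. Both rose without overlap, the mRNA by 2.26 and the footprints by 3.70 on the log2 scale. Its TE change was 1.44 (SE 0.29, edgeR adjusted p = 0.0241). This TE call was lost without either mRNA library of hES or of ND6, and without footprint replicate 2 of either stage. In the second set the TE change was 0.73 (SE 0.36, edgeR adjusted p = 0.547), with TE at ND3 of −0.82, −0.61 and −0.56, against −1.26 to −1.71 at hES.

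The other members called in the second set are ranked 2nd, 5th, 12th, 41st, 49th and 55th, with TE changes of 1.29, 0.84, 0.92, 1.26, 1.13 and 0.88. For those ranked 2nd, 12th, 41st and 49th footprints were called higher, with mRNA changes of 0.10, 0.72, −0.03 and 0.29, and of these the 12th and 49th also had mRNA called higher (edgeR adjusted p = 5.603e-05 and 0.00726). For those ranked 5th and 55th the mRNA was called lower, by 0.77 and 0.58, with footprint changes of 0.10 and 0.31 that did not pass. With shKBTBD8 at ND6 the TE changes of these 6 did not pass, at 1.16, 0.75, 0.73, 1.36, −0.17 and 0.21.

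uc010xno.2, ranked 2nd, had footprints called higher and no mRNA call. With shKBTBD8 its footprints were 45.8 and 46.2 CPM at ND6, against 13.5 and 18.9 CPM at hES, and its mRNA was 58.3 and 83.8 CPM, against 59.5 and 73.2 CPM. Footprints did not overlap between the stages and mRNA did. The footprint change was 1.32 (SE 0.36, edgeR adjusted p = 0.0291) and the mRNA change 0.16 (SE 0.18, adjusted p = 0.458). The footprint call was lost in each of the 4 fits that left out 1 hES or ND6 library, with changes of 1.18 to 1.48.

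In the second set the footprints of uc010xno.2 were 30.7, 34.8 and 37.5 CPM at ND3 with shKBTBD8, shTCOF1 and shControl, against 14.8, 11.4, 15.0 and 8.86 CPM at hES. All ND3 libraries lay above all hES libraries. The footprint change was 1.41 (SE 0.24, edgeR adjusted p = 0.00139). The TE change of 1.29 (SE 0.25, adjusted p = 0.0265) was no longer called in 10 of the 14 fits without 1 library, 7 of which left out an mRNA library, with edgeR adjusted p of 0.0693 to 0.146.

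uc003qit.1, ranked 1st, had very few footprints. With shKBTBD8 its TE was −1.83 and −1.08 at ND6, against −3.26 and −4.61 at hES, from 82 and 33 footprint counts at ND6 and 39 and 7 at hES. The stages did not overlap, and the hES replicates lay far apart. The TE change of 2.31 (SE 0.59, edgeR adjusted p = 0.122) did not pass. Under alternative settings, fits with 1 library left out included, it passed in 3 and not in 13. Without hES footprint replicate 1, 1 of those where it passed, it was 3.54. Its footprint change of 2.80 (SE 0.80, edgeR adjusted p = 0.0371) passed, and was lost without any 1 of hES footprint replicates 1 and 2 or ND6 footprint replicate 2 (2.21 to 3.95).

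In the second set uc003qit.1 did not show the gain. It had 22, 40 and 8 footprint counts at ND3 with shKBTBD8, shTCOF1 and shControl, and 42, 38, 13 and 0 in the hES libraries. A count of 0 limits what can be said of that library, and the stages overlapped. The TE change was −0.30 (SE 0.59, edgeR adjusted p = 0.916).

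uc010wlf.2, ranked 8th, is the member with the second greatest called fall in mRNA. With shKBTBD8 its mRNA was 24.4 and 26.6 CPM at ND6, against 91.0 and 82.9 CPM at hES, a change of −1.71 (SE 0.14, edgeR adjusted p = 2.02e-06). Its footprints were 30.2 and 20.3 CPM, against 49.2 and 37.1 CPM, a change of −0.96 (SE 0.37, edgeR adjusted p = 0.121) that did not pass. In the control libraries that chose it, footprints were 52.9 and 30.4 CPM at ND6 and 39.6 and 31.5 CPM at hES. Its TE change did not pass with shKBTBD8 (0.77, edgeR adjusted p = 1) or in the second set (0.95, edgeR adjusted p = 0.0795). In the second set it passed under 3 alternative settings, fits with 1 library left out included, and not under 18.

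**Figure D4:**
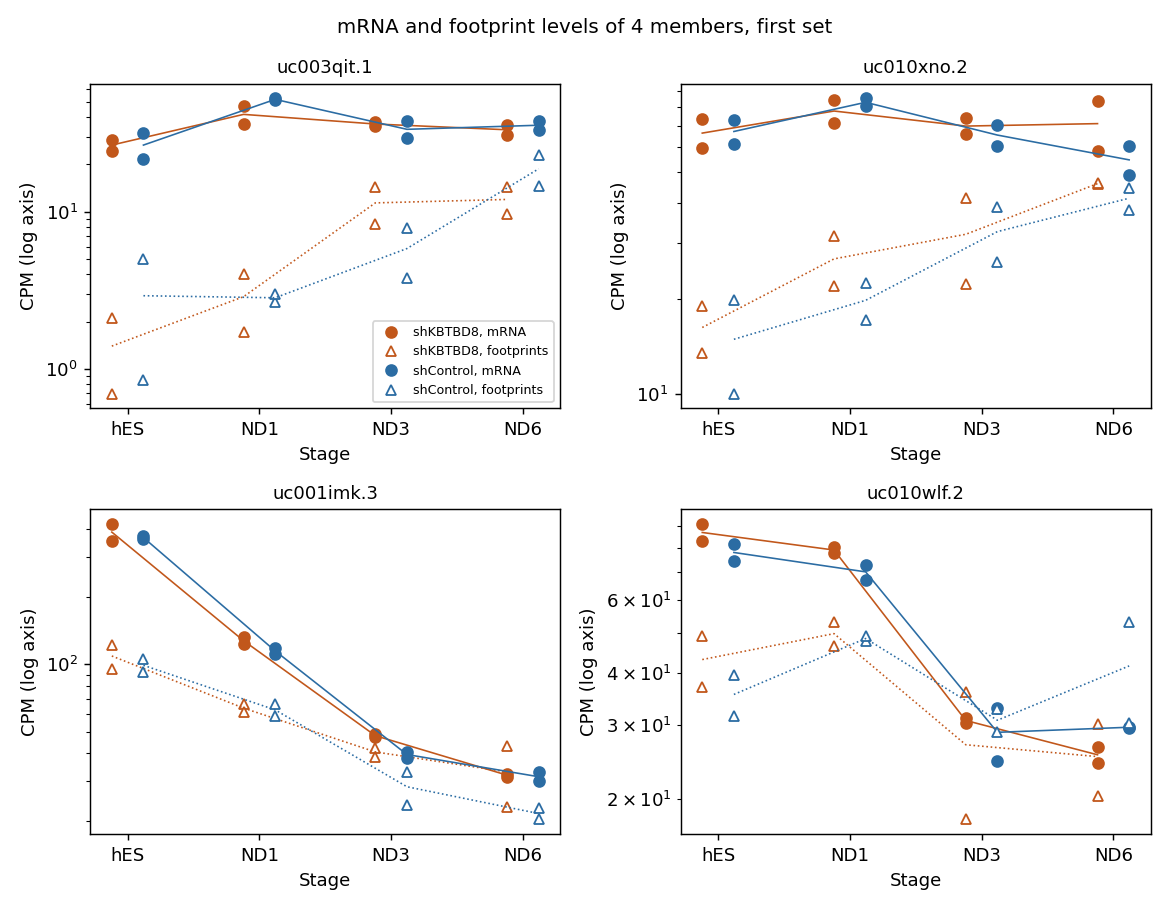
mRNA (filled circles, solid lines through the means) and footprints (open triangles, dotted lines) of the 4 printed members by stage in the first set, in CPM on log axes, with shKBTBD8 in orange and shControl in blue, 1 symbol per library. Footprints of uc003qit.1 and uc010xno.2 are higher at ND6 than at hES in every pair of libraries; mRNA of uc001imk.3 and uc010wlf.2 is lower at ND6 than at hES in every pair.

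Over all members the TE gain came with different mRNA changes. With shKBTBD8 at ND6, 21 members rose in mRNA and 28 fell, beside 29.7% and 27.8% of all 17614 transcripts, so both shares lie near the background. Footprints rose for 12 members and fell for 1, beside 4.06% and 6.12% of all 16074 transcripts tested. The members' median footprint change was 0.60, against −0.23 for the others, and their median mRNA change −0.10, against −0.12. Of the 12 with footprints called higher, 10 also had mRNA called higher. Of the 28 with mRNA called lower, 1 had footprints called lower and 27 had no footprint call. No such cross of calls was made over all transcripts, where footprint calls were also rarer than mRNA calls. It is therefore not read as a trait of the members. Fewer footprint rises were called without either hES footprint library, and more falls without ND6 footprint replicate 1. Counts over all transcripts moved the same way in these fits.

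In the second set at ND3, 21 members rose in mRNA and 42 fell, beside 30.7% and 31.2% of all 17616 transcripts. Footprints rose for 15 and fell for 5, beside 7.76% and 8.51% of 16987. Of the 42 with mRNA called lower, 37 had no footprint call and 5 had footprints called lower. Of the 15 with footprints called higher, 9 had mRNA called higher and 6 had no mRNA call. This cross of calls, too, was not made over all transcripts and is not read as a trait of the members. Fewer footprint rises were called without the shKBTBD8 or shTCOF1 footprint library of either stage. More footprint falls were called without hES shControl footprint replicate 2, and fewer without any other 1 footprint library. Counts over all transcripts moved the same way in these fits. A transcript with no footprint call is not shown to be unchanged, because the median standard error was 0.27 for footprints and 0.08 for mRNA.

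**Figure D5:**
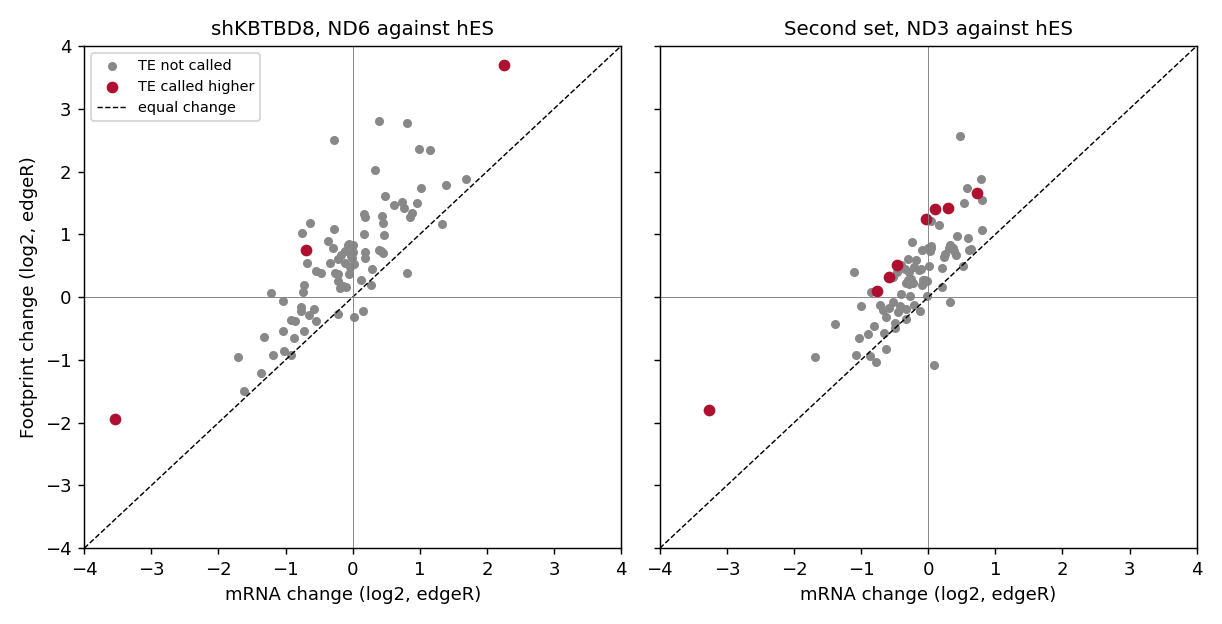
Change of mRNA (horizontal) and of footprints (vertical) for the 87 members, in log2 units from edgeR, for shKBTBD8 at ND6 against hES (left) and the second set at ND3 against hES (right). The dashed line marks equal change, and most members lie above it; red points are the 3 and the 8 members with TE called higher, which lie on both sides of 0 for mRNA.

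Between shKBTBD8 and shControl no member differed in TE by the adjusted test at the stages whose control libraries the rule did not read. At ND3 the members' median difference was −0.14 (27 of 87 above 0), against −0.03 for the others (46.65% above 0). At ND1 it was 0.05 (49 above 0), against −0.04 (42.6% above 0). edgeR and DESeq2 each called 0 members and 0 of 17604 transcripts at both stages, which is 0%. At an unadjusted p, edgeR gave 0 members higher and 2 lower at ND3, beside 1.97% and 1.84% of all transcripts, and 0 in either direction at ND1, beside 1.01% and 0.489%. Non-overlap at ND3 was seen for 3 members above and 8 below, beside 14.2% and 12.3%, and at ND1 for 12 and 7, beside 12.3% and 13.4%. The control ND3 replicates had member medians of −0.87 and −1.44, so the spread at that stage was wide. Without ND3 shKBTBD8 footprint replicate 1 the members' median difference was −0.55, against −0.30 over all transcripts. Without ND3 shControl footprint replicate 1 it was 0.02, against −0.01. At ND6, where the control libraries chose the members, medians were −0.78 and −1.17 with shKBTBD8, against −0.69 and −0.75 with shControl, and no test is given.

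Within the control cells the stages between those used by the rule were compared with each other. Their differences between replicates correlated with those of the ND6 libraries that chose the members, at 0.40 (mRNA) and 0.26 (footprints) for ND3. For ND1 these values were 0.37 and −0.002. With the hES libraries they were 0.02 and −0.02 for ND3 and 0.23 and 0.115 for ND1. The part of this shared variation in the change below was not tested. From ND1 on, the TE of 47 members was higher in both ND3 libraries and that of 2 was lower in both, beside 27.6% and 13.8% of groups with enough mRNA. The members' median change was 0.26, with 71 of 87 above 0, against −0.06 for the others, with 43.0% above 0. edgeR called 0 members and 0 of 17565 transcripts, which is 0%. At an unadjusted p, 11 members were higher and 0 lower, beside 3.32% and 2.64%. DESeq2 called 0 members, beside 20 higher and 38 lower of all 17565 transcripts. Without ND3 footprint replicate 2, the lower of the ND3 libraries, the members' median was 0.46, against 0.02 over all transcripts. Without ND3 footprint replicate 1 it was 0.14, against 0.01.

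Measures that the rule did not read were set beside those of the others. Each row has a whole number in the files that is read here as a length, in a unit that the sources used here do not give. Its median was 665 for the members and 519.5 for the others, and 31 of 87 members lay above 936, the limit of the longest 25% of the others. Length did not order the members by their change: with shKBTBD8, r = −0.13 and rho = −0.09 between log2 length and the TE change. Across all 3313 groups with enough mRNA the values were r = 0.16 and rho = 0.05, and the TE change had rho = −0.03 with the TE at hES in the second set. The TE change with shKBTBD8 had r = −0.35 and rho = −0.15 with mRNA level at hES in the second set over the 3313 groups, and r = 0.09 and rho = 0.01 over the members. Transcripts within 1 library share its depth, and these values are descriptions.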

How the data were processed

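The deposited files hold whole-number counts per transcript row, made by the authors from footprint and mRNA-seq reads, and a second whole number read here as a length. The submitters' processing notes name TopHat2 2.0.7, Bowtie2 2.0.6, CASAVA 1.8 and the build hg19. Strand, counting program and treatment of reads with several places: not given in the sources used here. The first and second set were told apart by how titles are written.

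Rows averaging 10 or more counts and within 20 rows of each other were joined where their counts had a chi-square per degree of freedom under 2, the row with the highest total or the chosen row stood for its group, and 30 identical groups were merged. Near-identical gene copies and antisense transcripts can still share reads. Tests used edgeR 4.0.16 in R 4.3.3 (quasi-likelihood, TMM factors within each assay, filterByExpr, Benjamini-Hochberg over all transcripts tested, threshold 0.05), on libraries that the rule did not read; all 87 members passed the filter in each fit. DESeq2 1.42.0 and other settings were alternatives. On simulated counts with known changes the fits made few false calls and left many of the smaller changes in TE and footprints uncalled. Simulated libraries were drawn independently with the spread that the fits had estimated. Few false calls there therefore do not show how many the real libraries, which share variation, gave. The members, tests and row grouping were chosen with earlier results of these data known. The rule for printed identifiers took the first 2 members in the rule's order with at least 10 footprint counts in each of the 4 control footprint libraries, and the 2 with the greatest called mRNA fall with shKBTBD8; other members were singled out after their values were seen. Gene and marker lists needed names and could not be applied.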

Additional observations from a re-analysis of the deposited data

How the results depend on the processing

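Counts of called members moved more with the settings than the members' median change did. For TE with shKBTBD8 at ND6, 3 members were called higher, 6 with library totals in place of TMM, 7 with DESeq2 and 5 with the replicate number as a block. Over all transcripts these counts were 7, 12, 26 and 10. At ND3 the count of 0 became 2, 5 and 1 under the same settings and 1 with all libraries of the first set in the fit. Over all transcripts the 0 there became 4, 23, 2 and 5. At ND1 it became 1 with DESeq2, which was also the count over all transcripts. For TE in the second set the count of 8 became 15 with library totals, 19 with DESeq2 and 0 with knockdown libraries only. Over all transcripts the 26 there became 127, 205 and 0. With the block, 2 members, against 1, were called lower in footprints at ND6, and with knockdown libraries only, 3, against 5, in the second set.

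Library totals moved the median TE change of all transcripts to 0.43, against 0.08 with TMM, with shKBTBD8 at ND6, to 0.32, against 0.03, at ND3, to 0.27, against 0.07, in the second set and to 0.24, against 0.02, between ND3 and ND1 with shControl. The members' medians under library totals, 0.99, 0.70, 0.67 and 0.48, are to be read relative to that shift.

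Leaving out 1 library at a time moved the members called higher in TE over 0 to 10 with shKBTBD8 at ND6, 0 to 4 at ND3 (lower, 0 to 6), 3 to 9 in the second set and 0 to 3 for ND3 against ND1 with shControl. For shKBTBD8 against shControl at ND3 the members called lower moved over 0 to 14. Footprint rises moved over 5 to 12 with shKBTBD8 and 8 to 18 in the second set, and falls over 1 to 2 and 3 to 7. With 1 library left in a group, it is assumed to vary like the others.

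The replicate numbers pair nothing that the labels name. Deviations of same-numbered libraries correlated at 0.05 to 0.70 in the shKBTBD8 mRNA and 0.06 to 0.23 in the shKBTBD8 footprints. Set between shKBTBD8 and shControl of 1 stage, the mRNA correlations were 0.33 to 0.87 and those of footprints 0.072 to 0.59. The block left 0 members called in TE between the hairpins at ND1 and ND3. For shControl ND3 and ND1 they correlated at −0.21 in mRNA and −0.27 in footprints, and with the numbers crossed, a setting chosen after seeing the data, 0 members were called. No paired analysis was possible for the second set because most of its groups hold 1 library.

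Of the 100 chosen rows, 18 were also chosen (76 rows taken) with an mRNA level of at least 50 CPM, 36 with CPM from totals over 1 row per group and 96 with 1 added to CPM. The shares still passing the rule, taken or not, were 18%, 85% and 98%. Totals over 1 row per group are smaller (16.2 to 27.0 M mRNA counts in the first set, against 34.4 to 57.4 M). The same counts then give a higher CPM, and 1083 runs passed, against 342. Some of the chosen rows thus still passed there but were not among the 100 taken. Among printed members, the mRNA change of uc010xno.2 with shKBTBD8 was −0.12 to 0.40 with 1 library left out, the lowest without ND6 mRNA replicate 2. For uc003qit.1 in the second set the TE change was −0.66 to 0.011, the highest without hES shControl footprint replicate 1. Its footprint change, −0.081, was 0.043 with library totals, 0.063 with knockdown libraries only and −0.39 to 0.97 with 1 library left out. The causes of these moves were not tested.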
